A study of Mus musculus with 10 samples.

Results

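The 10 genes described here belong to the LIF, gp130 and STAT3 pathway: the ligand gene *Lif*, the receptor genes *Lifr*, *Il6st* and *Il6ra*, the kinase genes *Jak1* and *Jak2*, the transcription factor gene *Stat3*, the inhibitor genes *Socs2* and *Socs3*, and the target gene *Gbx2*. They were chosen by name from 21755 protein-coding genes on chromosomes 1 to 19 and X, and their promoters were read for H3K4me3, a histone mark of the start sites of transcribed genes. A gene was called marked where a deposited peak reached into a promoter window that ran from 1000 bp before any annotated transcription start site of the gene to 100 bp after it. Of the 10 genes, 9 were marked in at least 1 of the 10 libraries and 4 (*Lifr*, *Stat3*, *Socs2* and *Socs3*) in every library, whereas *Il6ra* was marked in none. Across all protein-coding genes, 53.5% were marked in at least 1 library and 16.6% in every library.

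LIF binds the receptor LIFR, which pairs with gp130, the product of *Il6st*. The kinases JAK1 and JAK2 bound to these receptors phosphorylate STAT3, which enters the nucleus and switches on genes that include its own inhibitor *Socs3*. In mouse embryonic stem cells this pathway helps to sustain naive pluripotency, and LIF is also a component of the medium in which naive extra-embryonic endoderm (nEnd) is cultured.

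The libraries came from untreated nEnd of the mouse OCT4-mCherry reporter line, cultured in a medium of RPMI with Activin A, the GSK3 inhibitor CHIR99021 and LIF, on mouse embryonic fibroblast feeders, which can carry PDGFRA, and sorted on the mCherry reporter of OCT4 and on cell-surface PDGFRA. Oct4+ nEnd (4 libraries) carried the reporter alone, DP nEnd (3 libraries) carried both markers, and Pdgfra+ nEnd (3 libraries) carried PDGFRA alone. All groups therefore share the reporter line, LIF and the other agents of the medium, and no LIF-free group is compared here. Profiling was by CUT&Tag, in which an antibody directs the Tn5 transposase to a histone mark. For each library the authors deposited peaks with a total signal (coverage summed over the peak) and a highest coverage, neither scaled between libraries, so that a peak is given here by its percentile among all peaks of its own library, from 0 (lowest) to 100 (highest).

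The promoters of 3 genes are printed. *Socs3* has the best known STAT3 feedback. *Jak2* and *Gbx2* had, with *Socs2*, the largest differences in mean percentile by total signal between Oct4+ and Pdgfra+ nEnd. For *Gbx2* the libraries of these populations overlapped. The sequences are the 250 bases before the RefSeq start in GRCm38.p6, and capitals mark a match to TTCNNNGAA, the spaced half-sites that STAT proteins bind. RefSeq entries matched 9 of the 10 genes, with *Socs2* the exception.
*Socs3* (chr11:117969367-117969616, minus strand): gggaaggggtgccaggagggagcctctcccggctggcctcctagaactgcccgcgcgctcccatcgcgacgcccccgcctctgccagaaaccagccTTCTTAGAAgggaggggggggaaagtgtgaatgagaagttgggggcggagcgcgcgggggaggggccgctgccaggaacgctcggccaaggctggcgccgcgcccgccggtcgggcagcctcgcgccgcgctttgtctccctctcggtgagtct
*Jak2* (chr19:29251553-29251802, plus strand): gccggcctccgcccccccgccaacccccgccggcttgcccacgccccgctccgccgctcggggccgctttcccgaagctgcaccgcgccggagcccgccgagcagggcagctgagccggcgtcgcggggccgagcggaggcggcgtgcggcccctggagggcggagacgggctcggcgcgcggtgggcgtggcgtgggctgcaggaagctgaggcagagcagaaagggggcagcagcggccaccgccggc
*Gbx2* (chr1:89931177-89931426, minus strand): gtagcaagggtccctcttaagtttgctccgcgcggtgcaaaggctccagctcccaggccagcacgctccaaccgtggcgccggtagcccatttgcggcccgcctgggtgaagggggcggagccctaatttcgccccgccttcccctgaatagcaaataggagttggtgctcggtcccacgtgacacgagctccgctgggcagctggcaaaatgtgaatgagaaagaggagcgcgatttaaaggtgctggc

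In *Socs3* the match TTCTTAGAA lay at bases -154 to -146 from the start. TTCNNNGAA reads the same on both strands and occurred in 7.02% of 32851 RefSeq promoters of this length. Among the members' 10 entries (*Lifr* has 2 starts) no other one held it, none held its narrower form TTCCNGGAA (0.913% of all promoters), and none held ATGCAAAT, the octamer of OCT factors, on either strand (1.60%). The *Lif* window and the second *Lifr* window lay outside every promoter peak of those genes, so the marked *Lif* promoter was not searched. Part of the *Socs3* window near the RefSeq start is an exon of a noncoding *Socs3* transcript in GENCODE. The *Jak2* window was 80.8% G and C with 37 CpG dinucleotides, the *Socs3* window 71.6% with 26 and the *Gbx2* window 61.6% with 18, against a median of 52.4% G and C over all promoters.

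The libraries differed in what they could show. They held between 6510 and 10545 peaks in Pdgfra+ nEnd and between 7575 and 8836 in DP nEnd, but 9144, 8098, 3477 and 4887 in Oct4+ nEnd replicates 1 to 4, and the median highest coverage of a peak was 22 in Oct4+ nEnd replicate 3. Read numbers are not given with the peaks, so depth is unknown. Of 8 epiblast genes, 8 were marked in each Oct4+ nEnd library, 4 to 6 in DP nEnd and 0 to 2 in Pdgfra+ nEnd, while 9 of 9 endoderm genes were marked in each DP and Pdgfra+ nEnd library and 0 to 5 in Oct4+ nEnd. Of the genes sorted on, *Pou5f1* (OCT4) was marked in every Oct4+ and DP nEnd library and in 0 of Pdgfra+ nEnd. *Pdgfra* was marked in every DP and Pdgfra+ nEnd library at a percentile of at least 99.8, and also in 1 Oct4+ nEnd library, replicate 1, at 15.7. Of 15 fibroblast markers, a check for feeder cells, 11 were unmarked in all 10 libraries, among them *Col1a1*, *Col1a2*, *Col3a1* and *Thy1*, and between 0 and 4 were marked in a library. Of 5 trophectoderm markers 0 to 2 were marked per library, *Tfap2c* in each Oct4+ nEnd library and in no other.

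Promoter peaks marked 9, 9 and 9 of the 10 pathway genes in DP nEnd replicates 1 to 3 and 9, 8 and 8 in Pdgfra+ nEnd. In Oct4+ nEnd they marked 9 and 9 in replicates 1 and 2 and 5 and 5 in replicates 3 and 4, the libraries with the fewest peaks, where the share of all ever-marked genes that was marked was also lower (34.6% and 47.5%, against 63.2% to 95.8% in the other 8 libraries). The mean was 7 ± 2.31 in Oct4+ nEnd (SD, n = 4), 9 ± 0 in DP nEnd (SD, n = 3) and 8.33 ± 0.577 in Pdgfra+ nEnd (SD, n = 3), and no pair of populations differed beyond the spread (exact two-sided permutation tests, p = 0.429, 0.429 and 0.40, adjusted p = 0.429 for each of 3 pairs). No pathway gene was marked in every library of one population and in none of another, which was the case for 4.01% of 11632 ever-marked genes between Oct4+ and DP nEnd, 3.35% between Oct4+ and Pdgfra+ nEnd and 0.215% between DP and Pdgfra+ nEnd. Because each library pools many cells, a lower peak in every cell and a peak in fewer cells cannot be told apart. The median percentile of the marked pathway genes by total signal was 60.3 to 74.2 in the DP nEnd libraries, 41.5 to 70.1 in Pdgfra+ nEnd and 36.8 to 68.3 in Oct4+ nEnd, beside 52.7 to 57.3 for all marked genes over the 10 libraries. In Fisher's exact tests of presence the adjusted p was 1 for every member and pair.

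**Figure D1:**
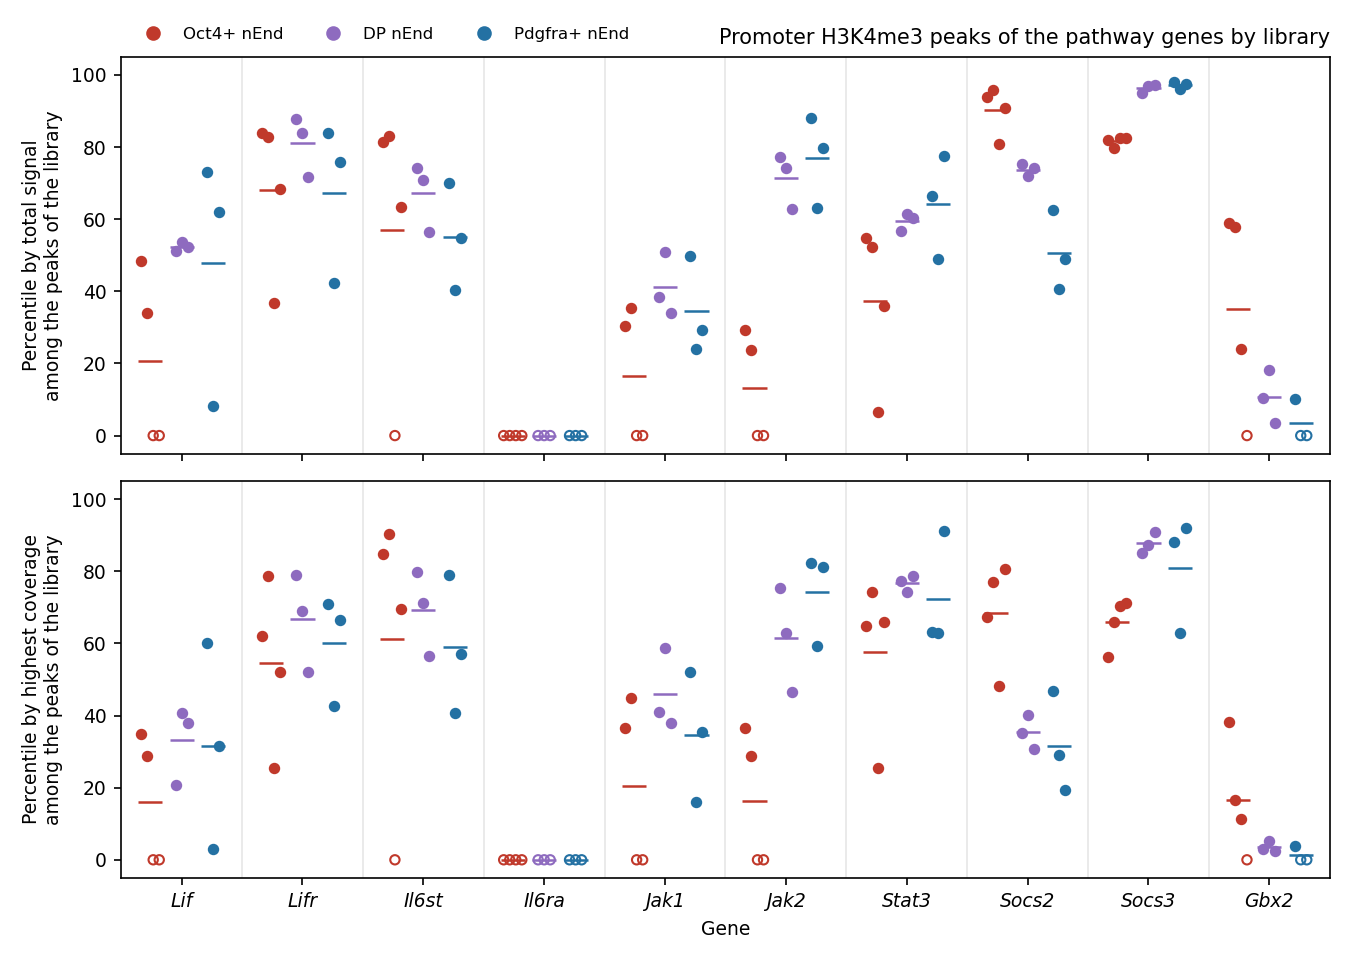
Percentile of the promoter peak of each of the 10 genes among all peaks of its library, by total signal (upper panel, vertical axis 0 to 100) and by highest coverage (lower panel). Each point is 1 library, open points at 0 are libraries without a promoter peak, and bars are means with a missing peak as 0. *Socs2* stands highest in Oct4+ nEnd, *Jak2* and *Socs3* stand lowest there, and *Il6ra* has no peak.

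*Lif*, the ligand, was marked downstream of its most upstream start: the peak covered 2 of its 3 annotated start sites (chr11:4257557-4272514, plus strand), and the DP nEnd consensus peak spanned chr11:4261661-4271803. Its percentile by total signal was 51.1, 53.5 and 52.4 in DP nEnd, 73.0, 8.19 and 62.0 in Pdgfra+ nEnd and 48.5 and 34.0 in Oct4+ nEnd replicates 1 and 2, with no peak in replicates 3 and 4. The DP nEnd libraries lay close together and above every Oct4+ nEnd library, whereas the Pdgfra+ nEnd libraries spread over most of the range. The *Lif* peak was 7652, 6210 and 7553 bp wide in DP nEnd, 6189 and 5359 bp in Oct4+ nEnd replicates 1 and 2 and 6905, 2051 and 4933 bp in Pdgfra+ nEnd. It was wider than the median peak of its library in all of these except Pdgfra+ nEnd replicate 2 (median 2205 bp).

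*Lifr*, which encodes the LIF-binding receptor (chr15:7090614-7197489, plus strand, 7 start sites), was marked in all 10 libraries. Its percentile by total signal was 87.7, 83.8 and 71.7 in DP nEnd, 83.9, 42.4 and 75.9 in Pdgfra+ nEnd and 83.9, 82.9, 36.8 and 68.3 in Oct4+ nEnd. The populations overlapped. Its peak was wider in every DP nEnd library (5706, 7161 and 4471 bp) than in every Pdgfra+ nEnd library (4369, 3321 and 3417 bp), a difference of 2077 bp (exact permutation test, p = 0.10, adjusted p = 0.771), where a comparison of 3 with 3 libraries cannot give a smaller p. The library median widths were also larger in DP nEnd (4031, 4223 and 3581 bp against 3786, 2205 and 3033 bp in Pdgfra+ nEnd), except that Pdgfra+ nEnd replicate 1 was above DP nEnd replicate 3. Pdgfra+ nEnd replicate 1 had 2 peaks over *Lifr* start sites and every other library 1.

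*Il6st*, which encodes the shared signalling receptor gp130 (chr13:112464070-112510086, plus strand), was marked in 9 libraries and missed in Oct4+ nEnd replicate 3. Its percentile was 81.5, 83.1 and 63.3 in Oct4+ nEnd replicates 1, 2 and 4, 74.2, 70.9 and 56.6 in DP nEnd and 70.1, 40.4 and 54.9 in Pdgfra+ nEnd. Among the libraries that had the peak, Oct4+ nEnd replicates 1 and 2 stood highest, and the populations overlapped. *Il6ra*, the receptor chain that binds interleukin 6 (chr3:89864059-89913196, minus strand), had no peak in any library, and the nearest peak lay between 45.5 and 48.9 kb from its nearest start site.

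*Jak1* and *Jak2* encode the kinases that the receptors activate. *Jak1* (chr4:101152367-101265282, minus strand) had a low to middling peak, at percentiles of 38.3, 51.0 and 34.1 in DP nEnd, 49.9, 24.1 and 29.2 in Pdgfra+ nEnd and 30.5 and 35.3 in Oct4+ nEnd replicates 1 and 2, and was missed in Oct4+ nEnd replicates 3 and 4. Among marked libraries the *Jak1* values of the populations overlapped.

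*Jak2* (chr19:29251828-29313080, plus strand) stood lowest in Oct4+ nEnd, whereas DP and Pdgfra+ nEnd overlapped. Its percentile by total signal was 77.1, 74.1 and 62.8 in DP nEnd and 88.0, 63.2 and 79.7 in Pdgfra+ nEnd, but 29.2 and 23.9 in Oct4+ nEnd replicates 1 and 2, with no peak in replicates 3 and 4. Every Oct4+ nEnd library lay below every other library. Of ever-marked genes, 23.3% lay so against DP nEnd and 18.8% against Pdgfra+ nEnd. Oct4+ nEnd replicates 1 and 2 had numbers of peaks within the range of the other populations. Their median highest coverage (59 and 52) was below that of every DP and Pdgfra+ nEnd library. When each library was cut to its 3477 peaks of highest total signal, *Jak2* was marked in all 6 DP and Pdgfra+ nEnd libraries and in 0 of the 4 Oct4+ nEnd libraries, with percentile differences of -33.2 and -49.7 from DP and Pdgfra+ nEnd. Under that limit 6.36% of ever-marked genes were marked in all libraries of one and none of the other of Oct4+ and DP nEnd, and 7.56% of Oct4+ and Pdgfra+ nEnd. With a missing peak as 0, the mean of Oct4+ nEnd differed from that of DP nEnd by -58.1 percentile points and from that of Pdgfra+ nEnd by -63.7 (exact two-sided permutation tests, p = 0.0286 for both, the smallest that 4 against 3 libraries allow, adjusted p = 0.252 and 0.240 over 11632 genes). By highest coverage the order held, with 36.5 and 28.8 in Oct4+ nEnd replicates 1 and 2, 46.6 to 75.4 in DP nEnd and 59.3 to 82.3 in Pdgfra+ nEnd. Its width was 4317 and 2187 bp in Oct4+ nEnd replicates 1 and 2 and 4525 to 5299 bp in DP nEnd, every DP nEnd library above those of Oct4+ nEnd. In Pdgfra+ nEnd it was 5192, 3597 and 4193 bp, which overlapped Oct4+ nEnd.

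*Stat3*, the transcription factor of the pathway (chr11:100885098-100939540, minus strand), was marked in every library. Its percentile by total signal was 56.6, 61.4 and 60.3 in DP nEnd, 66.5, 48.9 and 77.4 in Pdgfra+ nEnd and 54.9, 52.2, 6.59 and 35.8 in Oct4+ nEnd. Oct4+ nEnd replicates 1 and 2 lay less than 5 percentile points below the lowest DP nEnd library, and replicate 3, with the fewest peaks, lay farthest below. Its width was 2644 to 3293 bp in Oct4+ nEnd, 2889 to 4088 bp in DP nEnd and 2080 to 4051 bp in Pdgfra+ nEnd, which overlapped.

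*Socs2* and *Socs3* encode inhibitors of cytokine receptor signalling, and their peaks differed in opposite directions. *Socs2* (chr10:95385362-95417180, minus strand) stood at percentiles by total signal of 93.8, 95.8, 81.0 and 90.9 in Oct4+ nEnd, 75.2, 71.9 and 74.1 in DP nEnd and 62.5, 40.7 and 48.9 in Pdgfra+ nEnd. All 3 populations were separate, with Oct4+ nEnd highest and Pdgfra+ nEnd lowest. The means were 90.4 ± 6.58 (SD, n = 4), 73.7 ± 1.67 (SD, n = 3) and 50.7 ± 11.0 (SD, n = 3), and Oct4+ nEnd differed from Pdgfra+ nEnd by 39.7 (exact permutation test, p = 0.0286, adjusted p = 0.240) and from DP nEnd by 16.6 (p = 0.0571, adjusted p = 0.289). With 3477 peaks kept in each library these differences were 85.5 and 47.4 (exact permutation tests, p = 0.0286 for both). Under that limit no Pdgfra+ nEnd library kept the *Socs2* peak, so the larger difference is measured from missing peaks counted as 0. By highest coverage Oct4+ nEnd was again above the rest (67.3, 77.1, 48.2 and 80.7), but DP nEnd (35.2, 40.1 and 30.7) and Pdgfra+ nEnd (46.7, 29.1 and 19.2) overlapped. The *Socs2* peak was 6026, 5514, 5518 and 4953 bp wide in Oct4+ nEnd, 4700, 5004 and 5028 bp in DP nEnd and 4079, 3274 and 3496 bp in Pdgfra+ nEnd. Every *Socs2* peak also overlapped the promoter window of 5730420D15Rik, a bidirectional long noncoding RNA, so its signal cannot be assigned to *Socs2* alone.

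*Socs3* (chr11:117966079-117970047, minus strand) stood at 95.0, 96.8 and 97.3 in DP nEnd and 98.1, 96.0 and 97.4 in Pdgfra+ nEnd, but at 81.9, 79.7, 82.6 and 82.5 in Oct4+ nEnd. The 4 Oct4+ nEnd libraries lay within 3 percentile points of each other, and all were below the other 6. The means were 81.7 ± 1.36 (SD, n = 4), 96.4 ± 1.22 (SD, n = 3) and 97.2 ± 1.08 (SD, n = 3) in Oct4+, DP and Pdgfra+ nEnd, with exact permutation p = 0.0286 for Oct4+ nEnd against each of the others (adjusted p = 0.252 and 0.240). With 3477 peaks kept in each library the differences were -25.7 and -28.0 (exact permutation tests, p = 0.0571 for both).

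The *Socs3* peak differed in shape as well as in rank. It was 9069, 10256 and 9015 bp wide in DP nEnd and 9890, 4469 and 8343 bp in Pdgfra+ nEnd, but 5128, 4111, 5224 and 4284 bp in Oct4+ nEnd. The mean difference of Oct4+ from DP nEnd was -4760 bp (exact permutation test, p = 0.0286, adjusted p = 0.398), whereas Oct4+ nEnd overlapped Pdgfra+ nEnd, whose replicate 2 had the narrowest peaks of all libraries (median 2205 bp). The printed promoter lies inside all of these peaks. The gene is 3969 bp long, and in DP nEnd the peak ran through it and 4.37, 5.01 and 3.86 kb past its 3′ end. In Pdgfra+ nEnd replicates 1 and 3 it reached 4.39 and 3.43 kb past that end. In Oct4+ nEnd it ended between 0.524 kb before the 3′ end and 0.644 kb past it, and Pdgfra+ nEnd replicate 2 ended 0.127 kb before it. No other gene's promoter window overlapped the *Socs3* peak in any library.

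**Figure D2:**
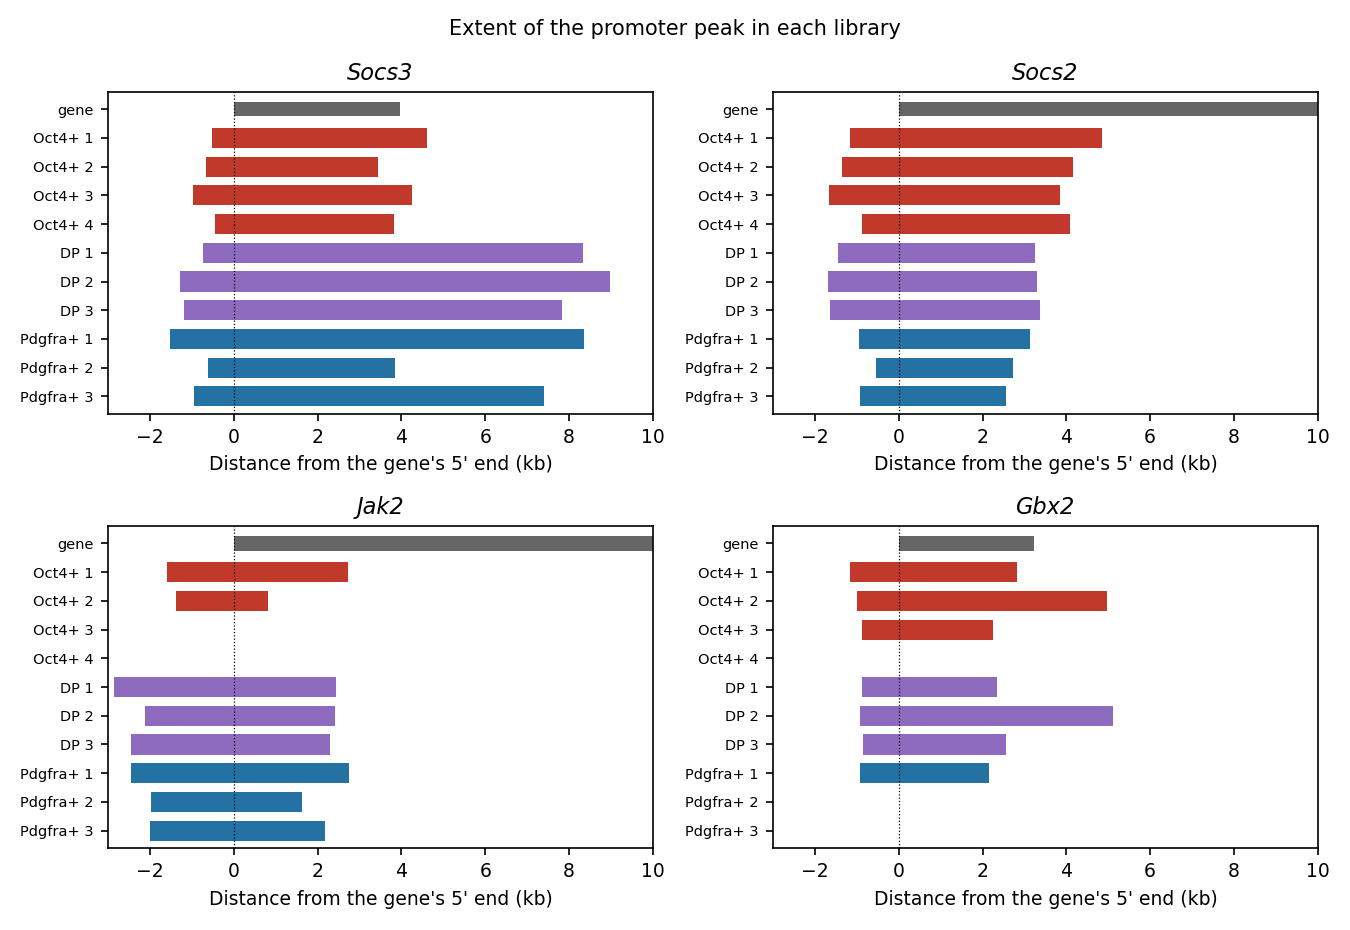
Extent of the promoter peak of *Socs3*, *Socs2*, *Jak2* and *Gbx2* in each library, drawn along the direction of transcription, with the horizontal axis in kb from the annotated 5′ end of the gene (dotted line). Coloured bars are peaks, grey bars are genes (those of *Socs2* and *Jak2* run on past the axis), and empty rows are libraries without a peak. The *Socs3* peak reaches at least 3.43 kb past the gene in 5 libraries, none of them Oct4+ nEnd.

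*Gbx2*, a homeobox gene and target of STAT3 in mouse embryonic stem cells (chr1:89927956-89931179, minus strand), had a peak in all 3 libraries of DP nEnd, in 3 of the 4 of Oct4+ nEnd and in 1 of the 3 of Pdgfra+ nEnd. Its percentile by total signal was 58.9, 57.8 and 23.9 in Oct4+ nEnd replicates 1 to 3 and it had no peak in replicate 4. It was 10.3, 18.2 and 3.35 in DP nEnd and 10.1 in Pdgfra+ nEnd replicate 1. Each Oct4+ nEnd library that had the peak was above every other library, but the replicate without it lay below DP nEnd, so that the populations overlapped and the difference from DP nEnd of 24.5 percentile points was within the spread (exact permutation test, p = 0.286, adjusted p = 0.596). The difference from Pdgfra+ nEnd was 31.8 (exact permutation test, p = 0.171, adjusted p = 0.458). With 3477 peaks kept in each library both differences were 6.42. The *Gbx2* peak was 3216, 6035 and 3404 bp wide in DP nEnd, 3076 bp in Pdgfra+ nEnd replicate 1 and 3131 to 5973 bp in the marked Oct4+ nEnd libraries. The DP and Oct4+ nEnd widths overlapped, and in DP nEnd replicates 1 and 3 the peak was narrower than the library median (4031 and 3581 bp). The *Gbx2* peak also overlapped the promoter window of D130058E05Rik, a noncoding transcript, wherever it was called.

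Counted over the 9 genes ever marked, 1 (*Socs2*) had a higher percentile by total signal in every Oct4+ nEnd library than in every DP nEnd library, against 4.21% of ever-marked genes, and 4 (*Lif*, *Jak2*, *Stat3* and *Socs3*) a lower one in every library, against 23.3%. Between Oct4+ and Pdgfra+ nEnd, 1 (*Socs2*) was higher throughout, against 4.62%, and 2 (*Jak2* and *Socs3*) were lower, against 18.8%. Between DP and Pdgfra+ nEnd, 1 (*Socs2*) was higher in DP nEnd, against 2.68%. By highest coverage 1 (*Socs2*, 3.84% of genes) was higher and 3 (*Jak2*, *Stat3* and *Socs3*, 16.5%) were lower in Oct4+ than in DP nEnd, 1 (*Socs2*, 3.54%) was higher and 1 (*Jak2*, 11.8%) lower in Oct4+ than in Pdgfra+ nEnd, and 0 were separate between DP and Pdgfra+ nEnd (4.99%). By width 3 (*Lif*, *Jak2* and *Socs3*, 15.2%) were narrower in Oct4+ than in DP nEnd, 1 (*Socs2*, 4.65%) was wider in Oct4+ than in Pdgfra+ nEnd, and 3 (*Lifr*, *Socs2* and *Gbx2*, 12.2%) were wider in DP than in Pdgfra+ nEnd. Missing peaks counted as 0, which lowers Oct4+ nEnd through replicates 3 and 4, and no exact test of any gene passed after adjustment (smallest adjusted p over 11632 genes, 0.240 for total signal, 0.292 for highest coverage and 0.398 for width).

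To compare ranks among genes with no missing peak, the total signal was ranked within each library among the genes marked in every library of a pair. The normal score of the rank (0 for the middle gene, positive above it) was tested with limma. Missing peaks still set which genes are ranked, above all through Oct4+ nEnd replicate 3, where 4021 protein-coding genes were marked. *Socs2* ranked higher in Oct4+ than in DP nEnd by 1.23 ± 0.157 (difference in score ± SE; limma adjusted p = 0.000594) and higher than in Pdgfra+ nEnd by 2.09 ± 0.185 (adjusted p = 5.94e-05). *Socs3* ranked lower in Oct4+ nEnd than in DP nEnd (difference -0.97 ± 0.252, limma adjusted p = 0.0175) and than in Pdgfra+ nEnd (-1.16 ± 0.258, adjusted p = 0.00715). *Stat3* ranked lower than in DP nEnd (-0.62 ± 0.160, limma adjusted p = 0.0163) and than in Pdgfra+ nEnd (-0.94 ± 0.257, adjusted p = 0.0181). *Lifr* gave -0.17 ± 0.217 and 0.28 ± 0.261 (limma adjusted p = 0.579 and 0.428). Thus 1 of the 4 genes that could be fitted was called higher and 2 lower in each pair with Oct4+ nEnd, where 18.3% of 3882 genes were called higher and 18.7% lower against DP nEnd, and 18.4% of 3616 higher and 19.4% lower against Pdgfra+ nEnd. These pairs share the Oct4+ nEnd libraries. Without Oct4+ nEnd replicate 1, the one with a *Pdgfra* peak, *Socs2*, *Socs3* and *Stat3* were called in the same directions in both pairs (1.26, -0.84 and -0.59 against DP nEnd and 2.12, -1.03 and -0.90 against Pdgfra+ nEnd).

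**Figure D3:**
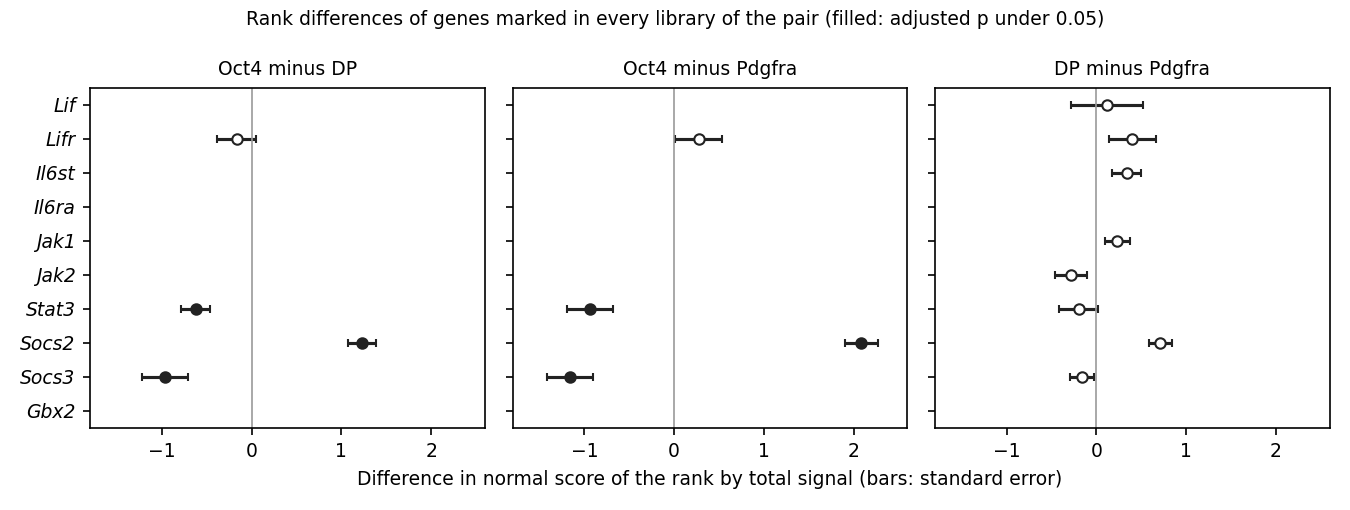
Difference in the normal score of the rank by total signal for each pair of populations (horizontal axis, score units), with the standard error from limma as bars and filled points for adjusted p under 0.05. Genes without a peak in every library of a pair have no point. *Socs2* lies to the right and *Stat3* and *Socs3* to the left in both panels with Oct4+ nEnd, and no point is filled for DP against Pdgfra+ nEnd.

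The call of *Stat3* depended on Oct4+ nEnd replicate 3. Without Oct4+ nEnd replicate 3 its differences were -0.32 against DP nEnd and -0.56 against Pdgfra+ nEnd (limma adjusted p = 0.198 and 0.162), and without Pdgfra+ nEnd replicate 3 it was -0.65 (adjusted p = 0.0703). Against DP nEnd the differences of *Stat3* and *Socs3* were nearly as large without DP nEnd replicate 2 (-0.66 and -0.96) or replicate 3 (-0.57 and -0.87), but missed the threshold with fewer libraries (limma adjusted p = 0.0526 and 0.0588, and 0.0692 and 0.0718). Neither gene was called by highest coverage, where *Socs3* differed by -0.83 and -0.75 (adjusted p = 0.144 and 0.266) and *Stat3* by -0.44 and -0.49 (adjusted p = 0.370 and 0.497) from DP and Pdgfra+ nEnd, and *Socs2* still was (adjusted p = 0.0186 against DP nEnd and 0.0286 against Pdgfra+ nEnd). In a fit added after the data were seen, missing peaks were tied at the lowest rank so that all 9 marked genes could be tested. *Jak2* was lower in Oct4+ nEnd (-1.10 ± 0.133 against DP nEnd and -1.30 ± 0.169 against Pdgfra+ nEnd, limma adjusted p = 0.000729 and 0.000431), and *Gbx2* scored higher (0.86 ± 0.265 and 1.25 ± 0.271, limma adjusted p = 0.0398 and 0.00802). *Socs2* and *Socs3* kept their calls, and *Stat3* was near 0 (-0.021 and -0.18, limma adjusted p = 0.918 and 0.497). Tied peaks took their average rank, so a missing peak scored higher where more were missing, as in Oct4+ nEnd replicates 3 and 4. The *Gbx2* call counts the missing peak of replicate 4 in this way, and exact permutation tests of its percentile gave p = 0.286 and 0.171. The low *Stat3* peak of replicate 3 likewise ranked above all missing peaks there.

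Between DP and Pdgfra+ nEnd none of the 8 genes that could be fitted was called by limma, where 0.0279% of 7174 genes were called. At an unadjusted p under 0.05, 1 of the 8 and 897 of the 7174 genes passed. The 1 was *Socs2*, higher in DP nEnd by 0.71 ± 0.125 (limma adjusted p = 0.0852). The others differed by between -0.28 (*Jak2*, adjusted p = 0.556) and 0.40 (*Lifr*, adjusted p = 0.560).

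The deposited consensus lists, 1 per population, held a promoter peak of *Lifr*, *Il6st*, *Lif*, *Jak1*, *Jak2*, *Stat3*, *Socs2* and *Socs3* in all 3 populations, of *Gbx2* in Oct4+ and DP nEnd but not in Pdgfra+ nEnd, and of *Il6ra* in none. The *Socs3* consensus peak was 10256 bp wide in DP nEnd, 9890 bp in Pdgfra+ nEnd and 5279 bp in Oct4+ nEnd. The *Socs2* consensus peak was 5072, 4079 and 6201 bp wide in the same populations, so that Oct4+ nEnd had the narrowest peak at *Socs3* and the widest at *Socs2*. The consensus was built from the same libraries and is no separate evidence.

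The genes whose percentiles were most like those of *Jak2* over the 10 libraries were *Cers6*, *Csrp2* and *Rcn1*, with mean absolute differences of 2.14, 3.24 and 3.33 percentile points. For *Socs2* they were *Rpl22*, *Rims2* and *Rcor2* (3.24, 3.85 and 4.45 points), and for *Gbx2* *Camk1d*, *Kcnab2* and *Nphp4* (4.58, 5.58 and 5.58 points).

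A further 45 genes of the pathway were counted by role, beside the 53.5% of all protein-coding genes that were marked in at least 1 library, and the roles were not tested against each other. Of 9 other ligands of the gp130 family, 8 (such as *Il6*, *Il11*, *Osm* and *Cntf*) had no peak in any library, and *Clcf1* had one in 4 of 10, shared with another gene's promoter window wherever it was called. Of 5 other receptor genes, 4 (such as *Osmr* and *Cntfr*) had none, and *Il11ra1* was marked in Pdgfra+ nEnd replicate 1 by a peak shared with the promoter window of *Galt*. Of 8 other kinase and STAT genes, 6, 6, 0 and 1 were marked in Oct4+ nEnd replicates 1 to 4 and 3 to 7 per DP or Pdgfra+ nEnd library, and none was marked in all 10.

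All 13 other inhibitor genes were marked in DP nEnd, 11 to 13 in Pdgfra+ nEnd and 12, 12, 5 and 11 in Oct4+ nEnd replicates 1 to 4, where 82.0%, 74.4%, 34.6% and 47.5% of all ever-marked genes were marked. *Cish*, an inhibitor best known as a target of STAT5, had a peak in all 3 libraries of DP nEnd, in 2 of Pdgfra+ nEnd and in 0 of the 4 of Oct4+ nEnd, with a percentile of at most 26.9, and 5 of its peaks were shared with the pseudogene Gm17040. *Socs1*, an inhibitor induced by interferon, stood at 75.9 to 82.3 in DP nEnd, 80.3 to 88.9 in Pdgfra+ nEnd and 0 to 45.0 in Oct4+ nEnd. By limma, 1 of 5 fitted inhibitors was called higher and 1 lower in Oct4+ than in DP nEnd, and 1 higher and 2 lower than in Pdgfra+ nEnd, where 18.3% and 18.7% of all fitted genes were called higher and lower against DP nEnd and 18.4% and 19.4% against Pdgfra+ nEnd. *Pias4* was higher in Oct4+ nEnd (0.91 ± 0.201 and 1.004 ± 0.227, limma adjusted p = 0.00863 and 0.00766), *Pias3*, which encodes an inhibitor of STAT3, was lower (-0.74 ± 0.205 and -1.06 ± 0.235, adjusted p = 0.0226 and 0.00696), and *Socs5* was lower than in Pdgfra+ nEnd (-1.08 ± 0.269, adjusted p = 0.0123).

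Of 10 further STAT3 targets, between 8 and 10 were marked in each library, where 34.6% to 95.8% of all ever-marked genes were marked. Against DP nEnd, where 18.3% of all fitted genes were called higher and 18.7% lower, 4 of 8 fitted targets were called higher in Oct4+ nEnd (*Bcl3*, 1.90 ± 0.355; *Pim1*, 0.97 ± 0.200; *Pim3*, 0.80 ± 0.191; *Mcl1*, 0.65 ± 0.196; limma adjusted p between 0.00391 and 0.0304) and 1 lower (*Klf4*, -0.83 ± 0.154, adjusted p = 0.00376). Against Pdgfra+ nEnd (18.4% of all fitted genes higher and 19.4% lower) 2 of 7 were called higher (*Myc*, 1.02 ± 0.241, and *Mcl1*, 1.19 ± 0.243, limma adjusted p = 0.00926 and 0.00479) and 1 lower (*Klf4*, -0.63 ± 0.185, adjusted p = 0.0240). The peaks of *Bcl3* and *Pim1* also overlapped promoter windows of antisense transcripts (in 9 and 10 libraries) and that of *Myc* the window of the unclassified transcript Gm37947 (in 10), which these data cannot separate. *Klf4*, a naive pluripotency factor, stood at 95.0 to 97.9 in Oct4+ nEnd and 98.7 to 99.7 in the other populations. *Tfcp2l1*, another naive pluripotency factor downstream of LIF, was marked in 4 of 4 Oct4+ nEnd libraries at percentiles of 28.4 to 67.2, and in 1 DP nEnd and 1 Pdgfra+ nEnd library at 7.90 and 9.92. *Fos*, an early response gene, stood at 60.2 to 81.7 in the DP and Pdgfra+ nEnd libraries and had a peak in 1 Oct4+ nEnd library, at 19.5. None of these 45 genes was called between DP and Pdgfra+ nEnd.

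**Figure D4:**
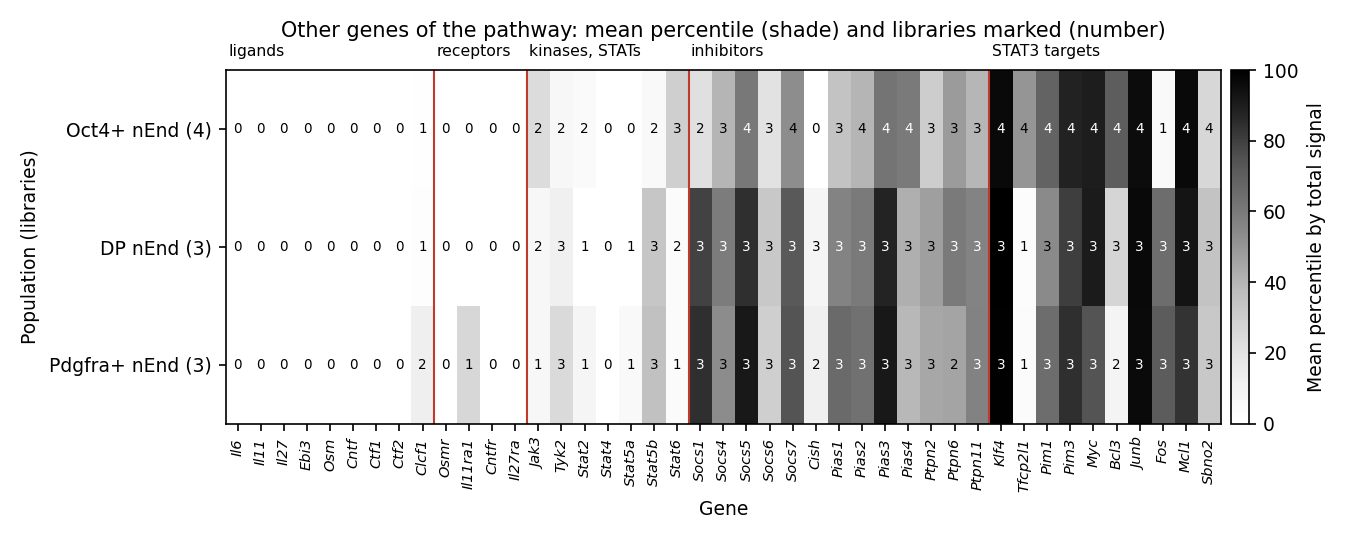
Further pathway genes (horizontal axis) in the 3 populations (vertical axis). Shade is the mean percentile of the promoter peak by total signal with a missing peak as 0, and numbers are libraries with a promoter peak, of 4, 3 and 3. Ligands and receptors are nearly empty, and the STAT3 targets at the right are dark in most cells.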

How the data were processed

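H3K4me3 CUT&Tag peaks were read for 4 Oct4+ nEnd, 3 DP nEnd and 3 Pdgfra+ nEnd libraries, grouped by their labels. Coverage was made by the authors with BEDtools, and peaks were called in each library with SEACR (stringent, against IgG) with a consensus per population from DiffBind. The submitters' processing notes name mm10, Bowtie2, SAMtools 1.12, bedtools 2.26.0, deepTools and bcl2fastq 2.19.1. The deposited values are signal (total and highest coverage per peak), not scaled between libraries, and the consensus lists hold positions alone. Depth is unknown, so no counting interval was computed. The study describes its profiles of this mark as made from biological replicates, fewer than the 4 Oct4+ nEnd libraries used here, and how the cultures were separated is not given in the sources used here, so p-values measure the spread between these libraries.

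Promoter windows came from GENCODE release M21 (GRCm38, the build of mm10). The peak with the highest total signal stood for a gene. The members and the lists were chosen with earlier results of these data known. All 10 members are named, other pathway genes where called or marked in all libraries of one population and none of another, and, for the 3 members with the largest Oct4+ to Pdgfra+ difference in mean percentile, the 3 nearest genes. *Clcf1*, *Il11ra1*, *Cish*, *Socs1*, *Tfcp2l1* and *Fos* and the unmarked ligands and receptors were named after their values were seen. Some genes of the lists are counted but not reported here one by one, and the plot of the wider pathway leaves them out.

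Tests were limma 3.58.1 (R 4.3.3) on normal scores of ranks, exact permutation tests and Fisher's exact test, with Benjamini-Hochberg adjustment over all genes tested (11632 ever-marked genes for the exact tests), called at 0.05. limma was tested on simulated data. Alternatives were 2500 bp windows, 50% of the window covered, 3477 peaks per library, protein-coding transcripts, other ranks and gene sets, each library left out and a replicate block. Same-numbered libraries were checked for shared deviations over 3616 genes. The 3 correlations were 0.229, 0.169 and 0.144 for Oct4+ with Pdgfra+ nEnd. They ranged from -0.112 to 0.149 for Oct4+ with DP nEnd and from -0.108 to 0.220 for DP with Pdgfra+ nEnd. Only the first pair thus had 3 positive correlations. The labels do not say what equal numbers share, so tests other than the replicate block took the libraries as unpaired. Tables were handled in Python 3.11.15 with pandas 2.3.3, and matplotlib 3.10.9 drew the plots. Exact permutation tests were written with numpy 2.4.6, and Fisher's exact test was run in scipy 1.17.1.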

Additional observations from a re-analysis of the deposited data

Results flagged for a closer look

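Of 28 sets of 4 Oct4+ nEnd values (both percentiles and the width of each of the 9 marked members, and the number of members marked), 1 had a library far from the other 3 by Dixon's criterion: the width of the *Il6st* peak, which was 7477, 6321 and 6869 bp in replicates 1, 2 and 4 and 0 in replicate 3, where no peak was called. Chance alone flags about 1 in 20 such sets. Replicate 3 also had the fewest peaks.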

How the results depend on the processing

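*Socs2* kept its direction and call under all alternatives fitted (16 against DP and 15 against Pdgfra+ nEnd). *Socs3* was called in 13 and 15 of 16 and *Stat3* in 10 and 11 of 15. Of 233 limma rank differences under alternatives, 211 kept direction and side of the threshold and 13 lost the call (all of *Socs3* or *Stat3*). The other 9, uncalled, changed sign, and 0 gained a call. Members without a main fit, such as *Gbx2*, are left out. The causes were not tested.

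Of 3 members called by limma between Oct4+ and DP nEnd, 1 was called by highest coverage, 0 by exact permutation of the percentile, and 1 to 4 with single libraries left out (1 without DP nEnd replicate 2 or 3). Of 3 called between Oct4+ and Pdgfra+ nEnd, 1 was called with equal numbers of peaks (*Socs3*, the 1 member that could be fitted), 1 by highest coverage and 0 by exact permutation. With missing peaks ranked lowest, an alternative chosen after seeing the data, 29.7%, 27.2% and 0.143% of all genes and 4, 4 and 0 members were called in the 3 pairs.

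With equal numbers of peaks, the difference in members marked between Oct4+ and Pdgfra+ nEnd turned from -1.33 to 0.417 (exact permutation p = 0.714). Members marked in all libraries of one population and none of the other went from 0 to 1 (Oct4+ and DP nEnd, *Jak2*), 2 (Oct4+ and Pdgfra+ nEnd, *Jak2* and *Socs2*) and 1 (DP and Pdgfra+ nEnd, *Socs2*), against 6.36%, 7.56% and 0.954% of ever-marked genes. With all peaks and single libraries left out, the number for DP and Pdgfra+ nEnd ranged from 0 to 1 (*Gbx2*, without Pdgfra+ nEnd replicate 1). Members separate by percentile between Oct4+ and DP nEnd went from 5 (27.5% of ever-marked genes) to 3 with equal numbers (21.9%) and to 3 among genes marked in all 10 libraries (45.2% of those). With single libraries left out, they ranged from 3 to 5 for Oct4+ and Pdgfra+ nEnd (5 without Pdgfra+ nEnd replicate 2, 35.1% of genes) and from 1 to 5 for DP and Pdgfra+ nEnd (3, 4 and 5 without DP nEnd replicate 3, Pdgfra+ nEnd replicate 1 and Pdgfra+ nEnd replicate 2, 10.7%, 28.3% and 17.6% of genes). By width they went from 1 (8.17% of genes) to 2 with equal numbers (11.0%) and 1 to 3 with libraries left out for Oct4+ and Pdgfra+ nEnd (3 without Oct4+ nEnd replicate 3 or Pdgfra+ nEnd replicate 2, 14.3% and 17.8%), and 3 to 8 for DP and Pdgfra+ nEnd (5 without DP nEnd replicate 3, 8 without Pdgfra+ nEnd replicate 1, 27.9% and 51.1% of genes).

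The replicate block, which drops Oct4+ nEnd replicate 4, gave 4, 3 and 0 called members in the 3 pairs (*Gbx2* was the addition against DP nEnd), beside 27.9%, 34.7% and 0% of all fitted genes, and changed no call between Oct4+ and Pdgfra+ nEnd, the pair whose numbers pair the libraries. By percentile, 8 members differed the same way in all 3 numbered pairs for Oct4+ and DP nEnd, 4 for Oct4+ and Pdgfra+ nEnd and 3 for DP and Pdgfra+ nEnd, against 38.2%, 34.8% and 15.6% of ever-marked genes, and *Il6st* differed by -0.247 percentile points between Oct4+ and Pdgfra+ nEnd.

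Uncalled values that changed sign were, by rank score under highest coverage, *Lifr* between Oct4+ and Pdgfra+ nEnd (-0.13) and *Stat3* and *Socs3* between DP and Pdgfra+ nEnd (0.080 and 0.18), and *Lif* with missing peaks lowest (-0.036). With equal numbers of peaks, percentile differences turned for *Il6st* between Oct4+ and DP nEnd (16.4) and *Lif* between DP and Pdgfra+ nEnd (-11.0). With single libraries left out, rank scores ranged from -0.36 to 0.0072 (*Lifr*, Oct4+ and DP nEnd), -0.047 to 0.45 (*Lifr*, Oct4+ and Pdgfra+ nEnd), -0.36 to 0.38 (*Lif*, DP and Pdgfra+ nEnd) and -0.35 to 0.045 (*Stat3*, DP and Pdgfra+ nEnd). Percentile differences ranged from -19.0 to 8.76 (*Il6st*, Oct4+ and DP nEnd), -11.9 to 11.0 (*Lifr*) and -6.85 to 20.9 (*Il6st*, both Oct4+ and Pdgfra+ nEnd), and -15.2 to 17.2 (*Lif*) and -12.5 to 1.70 (*Stat3*, both DP and Pdgfra+ nEnd). Unknown depth limits what a missing peak shows, above all in Oct4+ nEnd replicates 3 and 4.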
